A study of Schizosaccharomyces pombe with 3 samples.

Results

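The 3 centromeres of the fission yeast Schizosaccharomyces pombe were described on tiling arrays that carried chromatin immunoprecipitation (ChIP) of Psc3-GFP, a subunit of cohesin, against input DNA. Members were the genome probes whose start lay in 3751701 to 3791000 on chromosome I, 1596701 to 1648300 on chromosome II or 1064401 to 1142700 on chromosome III, in the array's own positions. They numbered 373 of 41551 genome probes (0.898%), with 123 on centromere I, 106 on centromere II and 144 on centromere III. Each interval was divided by probe start into its middle 6 kb and the flank on either side. That gave 56 left, 20 middle and 47 right probes on centromere I, 51, 19 and 36 on centromere II, and 94, 9 and 41 on centromere III.

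There was 1 array for each of 3 groups, so no difference has a replicate error or a test, and every SD below is a spread between probes of the same array. The clr4d strain is labelled only by the loss of clr4 and was cultured at 30 °C in rich medium. The cdc10-v50 strain carries a mutant allele of Cdc10 and was held at 35 °C for 4 h after culture at 26 °C to stop cells in G1, so allele, temperature and cell cycle stage cannot be told apart. The wild-type strain was cultured at 30 °C in rich medium. It carried Psc3-GFP::kanMX, with the mating-type allele mat1Msmto and the auxotrophic markers leu1-32 and ade6-216, and the labels do not say whether the mutants share these markers. Fixation was the same in all groups, in paraformaldehyde for 30 min at 18 °C followed by dimethyl adipimidate for 45 min.

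A fission yeast centromere has a central domain, where the histone H3 variant Cnp1 replaces much of H3 and the kinetochore assembles, between arms of inverted repeats. The outer repeats are packed as heterochromatin: Clr4 methylates lysine 9 of histone H3, the HP1 protein Swi6 binds that mark, and Swi6 recruits cohesin through Psc3. Clusters of tRNA genes are known barriers that separate the heterochromatin from the central domain and from the neighbouring genes. Cohesin holds sister chromatids together from S phase until anaphase, and Cdc10 is part of the transcription factor that starts S phase.

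The intervals matched gene-free stretches of the reference assembly ASM294v3 in their written coordinates. On chromosome I the stretch between per1 and emc5 is 39.194 kb long and is annotated with 7 tRNA genes and 27 long non-coding RNAs. On chromosome II the stretch between rpb1, the largest subunit of RNA polymerase II, and yox1 is 51.487 kb long with 27 tRNA genes and 40 long non-coding RNAs. On chromosome III the stretch between chk1, the checkpoint kinase, and ppc1 is 78.172 kb long with 21 tRNA genes and 60 long non-coding RNAs. No protein-coding gene is annotated in any of them. The array's numbering, however, fitted the reference less well than a shifted one on centromeres I and II, and almost as well on III. For each part the shift chosen was the one at which copy number in the reference best followed the marks in the probe names. Shifts of up to 6000 bp either way were tried, the unshifted numbering among them. The chosen fit therefore could not be worse than the unshifted one, and its gain is not a test. It was -850 and 4300 bp in the left and right parts of centromere I. On centromere II it was -1000 and -2000 bp, and on centromere III -250 and -600 bp. Unshifted correlations were 0.67 and 0.10 on I and 0.53 and 0.71 on II. On III they were 0.89 and 0.92, against 0.90 and 0.95 at the chosen shifts. The ends of the intervals are therefore uncertain, by as much as kilobases on centromeres I and II. No single element could be assigned to a probe, and no sequence is shown.

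Tiles were spaced 300 bp apart, and some places had no probe: 8 of 131 tile places on centromere I, 66 of 172 on centromere II and 117 of 261 on centromere III. Of the 373 probes, 125 had names ending in m, 158 in f, and 90 had no mark. What the marks mean is not given in the labels or file headers. At the best-fitting positions the reference holds a median of 10 copies of each 30-base word in tiles marked m. It holds 2 copies in tiles marked f and 1 copy in unmarked tiles. Those positions were chosen by fit to the marks, so the choice favoured this rise and it is not a test of the marks. The centromeres held 23.9% of all probes marked m on the array. Members that share a repeat hybridise to the same pool of DNA and are not independent of each other.

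Each value below is a log2 signal relative to the median probe of the same array and channel, or the log2 ratio of ChIP (Cy5) over input (Cy3), centred in the same way. A 2-fold difference is 1 on this scale. The wild-type array was scanned over a smaller range and read with another software version than both mutant arrays, so scan and genotype cannot be told apart in comparisons with wild type, while clr4d and cdc10-v50 share both settings. In wild type 216 of the 373 members (57.9%) reached the scanner's ceiling in the ChIP channel, against 5.47% of all probes, and no member did so in either mutant. Wild-type ratios are lower bounds at those probes, and a mutant minus wild-type difference there is an upper limit. At clr4 on chromosome II, 5 probes had a median input signal of 7.51 in clr4d, 1676 in cdc10-v50 and 1689 in wild type. They were picked near the gene for their low input in clr4d, so the clr4d value describes the label's match and does not test it.

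In measured ratios Psc3-GFP was highest over the centromere flanks in cdc10-v50, intermediate in wild type and close to the array median in clr4d, except in the right flank of centromere I, where the measured medians of cdc10-v50 and wild type were alike. Wild-type ratios are lower bounds at most flank probes, so the order of cdc10-v50 and wild type is not settled at those. Over the left flanks of the 3 centromeres the median ratio was 0.42 in clr4d (SD 0.63, 201 probes), 4.32 in cdc10-v50 (SD 1.54, 196 probes) and at least 2.11 in wild type (SD 0.85, 187 probes). Over the right flanks it was 0.45 in clr4d (SD 0.57, 123 probes), 3.74 in cdc10-v50 (SD 1.64, 117 probes) and at least 2.08 in wild type (SD 1.00, 118 probes). The middle 6 kb stood lower on every array, at 0.16 in clr4d (SD 0.50, 48 probes), 1.91 in cdc10-v50 (SD 0.75, 47 probes) and -0.31 in wild type (SD 0.91, 48 probes). In clr4d that step between flank and middle was smaller than the spread between probes.

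**Figure D1:**
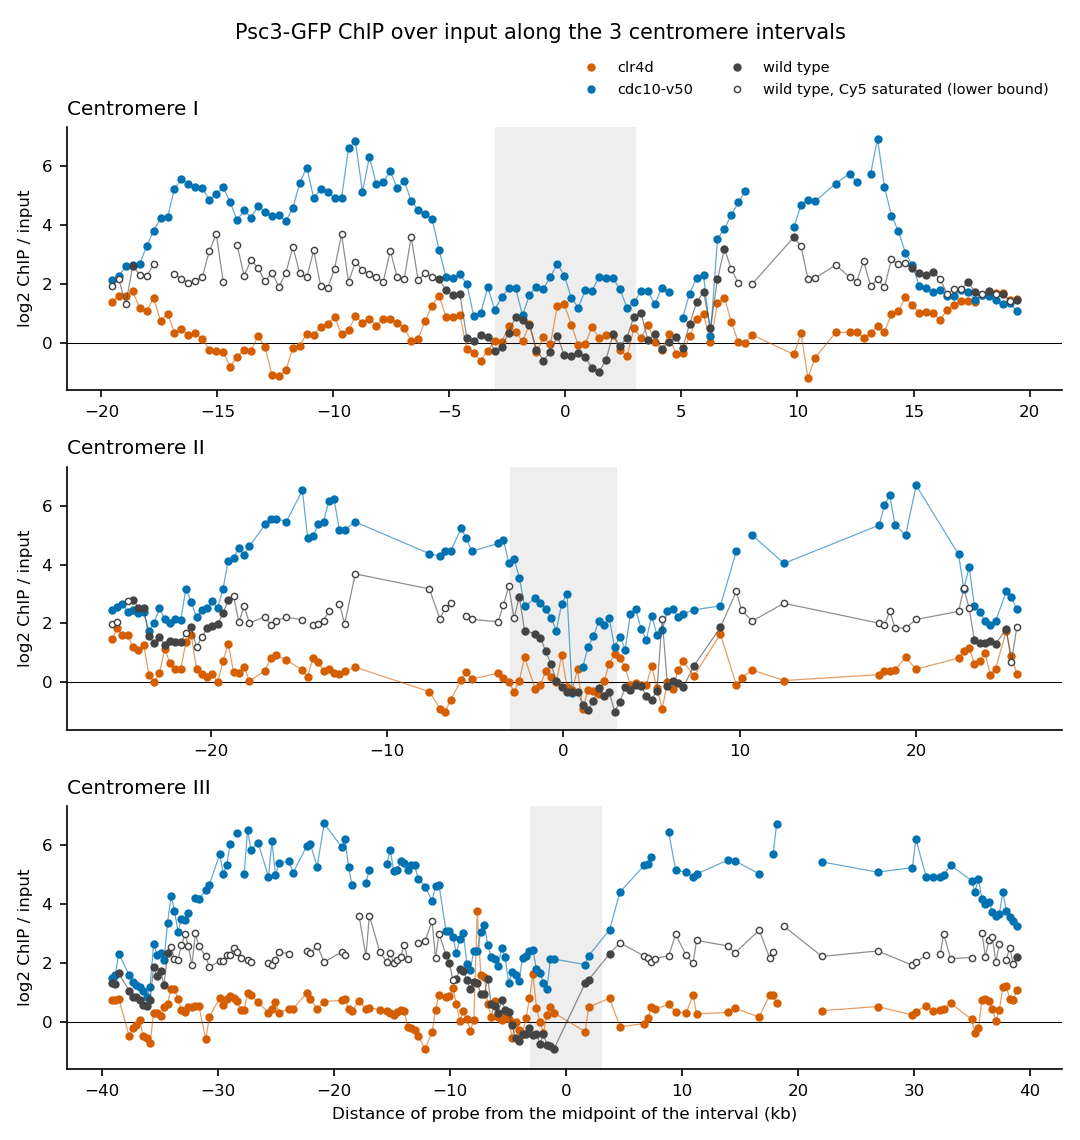
Log2 ChIP over input of every member probe against its distance from the interval's midpoint in kb, for clr4d, cdc10-v50 and wild type, 1 panel per centromere. Open circles are wild-type probes at the scanner's ceiling, whose ratios are lower bounds, and the grey band is the middle 6 kb. The cdc10-v50 profile has shoulders that reach 6.91 on centromere I, the wild-type profile has flatter shoulders and a trough, and the clr4d profile is highest near the ends on centromeres I and II and at a single probe of 3.75 on centromere III.

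By count of probes at least 2-fold above the array median, 56 of 372 members reached that level in clr4d (15.1%), against 8.19% of all probes on that array. In cdc10-v50 it was 353 of 360 members (98.1%), against 9.64% of all probes. In wild type it was 266 of 353 members (75.4%), against 9.34% of all probes. The order cdc10-v50, then wild type, then clr4d, from high to low, held at 266 of 340 members measured on all arrays (78.2%) and at 16.8% of probes outside the intervals. At saturated probes it is an order of measured values, since the true wild-type ratio may be higher. The share was 92.3% in the left flanks and 71.2% in the right flanks. In the middle only 40.4% of probes kept that order, and 57.4% ran cdc10-v50, then clr4d, then wild type.

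Among the flanks, the right flank of centromere III was the most uniform in measured ratios. In cdc10-v50 the right flank of centromere I was the most divided. In the right flank of III, inward of the outer 5 kb, 26 probes were saturated in wild type and 24 were marked m. Its narrow spread thus includes capped wild-type signals and probes that may share sequence. On centromere III the right-flank median was 0.44 in clr4d (SD 0.36, 40 probes), 4.93 in cdc10-v50 (SD 0.87, 38 probes) and at least 2.27 in wild type (SD 0.36, 36 probes). All of those 38 cdc10-v50 probes and all 36 wild-type probes were at least 2-fold above the median, and 3 of the 40 clr4d probes were. Of all probes, 9.64% were in cdc10-v50, 9.34% in wild type and 8.19% in clr4d, so the clr4d count was near that array's share. On centromere I the right-flank median was 0.71 in clr4d (SD 0.70, 47 probes), 1.90 in cdc10-v50 (SD 1.70, 44 probes) and at least 1.96 in wild type (SD 0.91, 46 probes). Probe by probe, the median cdc10-v50 minus wild-type difference in that flank was at most 0.72 (SD 1.41, 43 probes). The cdc10-v50 median of that flank rests on where it ends, since without the outer 5 kb it is 3.93. The right flank of centromere II, with 36 probes, had a median of 0.42 in clr4d (SD 0.53). It was 2.48 in cdc10-v50 (SD 1.51, 35 probes) and at least 1.41 in wild type (SD 1.17). Part of that flank belongs to a longer central run of probes without an m mark, given below. To the right of that run, 17 probes had medians of 0.64 in clr4d, 3.18 in cdc10-v50 and at least 1.85 in wild type.

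The left flanks were closer to each other. In clr4d their medians were 0.39 on centromere I, 0.40 on II and 0.42 on III, with SDs of 0.70, 0.60 and 0.59. In cdc10-v50 they were 4.55, 4.29 and 3.77, with SDs of 1.44, 1.39 and 1.67. In wild type they were at least 2.24, 2.10 and 2.02, with SDs of 0.85, 0.55 and 0.93. The differences between centromeres within a group were smaller than these spreads between probes.

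**Figure D2:**
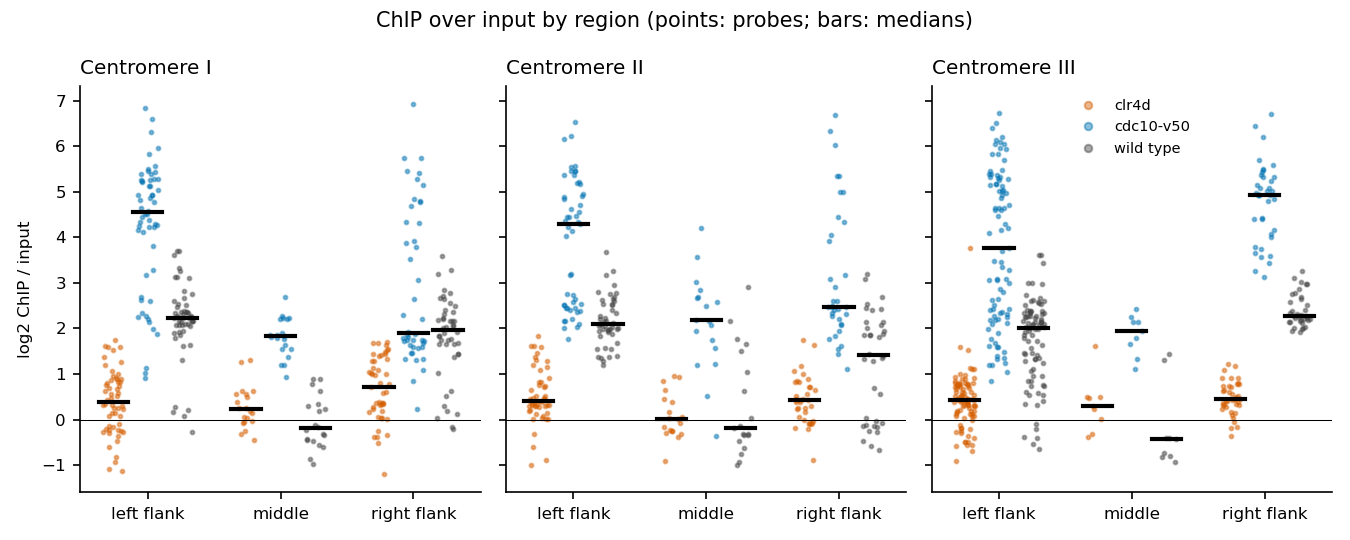
Log2 ChIP over input of each probe (points) with the median (black bars) in the left flank, middle 6 kb and right flank of centromeres I, II and III, for clr4d, cdc10-v50 and wild type. In the flanks the cdc10-v50 medians lie between 1.90 and 4.93 and the clr4d medians between 0.39 and 0.71.

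The clr4d minus wild-type difference was negative in the median of every flank. Its median was at most -1.52 in the left flanks (SD 1.00, 187 probes) and at most -1.42 in the right flanks (SD 1.04, 117 probes), so wild type was at least 2.87-fold and at least 2.68-fold above clr4d there. At 217 of 352 members (61.6%) clr4d was at least 2-fold below wild type, against 5.19% of all probes. It measured at least 2-fold above wild type at 15 of 352 members (4.26%), against 4.83% of all probes, of which 11 lay in the middle. Saturation and probe choice bear on the size: over the probes that were saturated on no array the median difference was -0.86 in the left flanks (SD 0.79, 65 probes) and -0.32 in the right flanks (SD 0.89, 45 probes), and these are the probes with the weaker wild-type ChIP signal. Without marked probes it was at most -1.08 in the left flanks (SD 0.62, 38 probes) and at most -0.34 in the right flanks (SD 0.95, 37 probes). Leaving out marked probes also changes position, since in the left flank of centromere I only the 6 outermost probes remain.

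Positions are given in kb from the midpoint, negative to the left. Among probes well above background and unsaturated, the one with the lowest clr4d minus wild-type difference lay at 9.85 kb on centromere I, at -2.5 kb on centromere II and at -9.15 kb on centromere III. The ratios at the first were -0.39 in clr4d and 3.59 in wild type. At the second they were 0.07 in clr4d and 2.90 in wild type, and at the third 0.03 in clr4d and 1.78 in wild type. Of these, the first is marked m and the others f.

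The clr4d ratios were not spread evenly along the flanks. They were higher at 5 of 6 outer ends than further inward, and at the right end of centromere I they came near the measured values of wild type, which are lower bounds at saturated probes. Over the outer 5 kb the clr4d median was 1.41 at the right end of centromere I (SD 0.27, 17 probes), with all probes at or above 0.79, while cdc10-v50 had 1.64 (SD 0.47) and wild type at least 1.83 (SD 0.39). Further inward on the same flank clr4d had 0.33 (SD 0.58, 30 probes), cdc10-v50 3.93 (SD 1.79, 27 probes) and wild type at least 2.03 (SD 1.11, 29 probes). In the outermost window, from 18 to 20 kb, means were 1.60 in clr4d (SD 0.12), 1.36 in cdc10-v50 (SD 0.18) and at least 1.59 in wild type (SD 0.14) over 5 probes, of which 2 were saturated in wild type.

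The other ends were graded. The outer 5 kb had a clr4d median of 0.75 at the left end of centromere I (SD 0.70, 17 probes), 1.17 at the left end of II (SD 0.58, 16 probes), 0.83 at the right end of II (SD 0.43, 11 probes) and 0.72 at the right end of III (SD 0.50, 14 probes). The left end of centromere III was the exception, with 0.20 (SD 0.52, 15 probes) against 0.44 in the inner flank (SD 0.59, 79 probes). Inner flanks elsewhere had clr4d medians between 0.26 and 0.42. The probes just inside and just outside the limits gave like values except at the left limit of centromere II. At the right limit of centromere I clr4d had 1.49 inside and 1.33 outside, and at its left limit 1.37 inside and 1.36 outside. The clr4d level at these ends continued past the limit. At the other limits clr4d had 1.46 inside and 0.81 outside (II, left), 0.30 and 0.29 (II, right), 0.76 and 0.81 (III, left) and 1.08 and 1.19 (III, right).

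The lowest clr4d windows lay inside the flanks and not in the middle. On centromere I the window from -14 to -12 kb had a mean of -0.50 in clr4d (SD 0.54), 4.37 in cdc10-v50 (SD 0.18) and at least 2.34 in wild type (SD 0.30) over 7 probes, none marked m. On centromere II the window from -8 to -6 kb had -0.70 in clr4d (SD 0.31), 4.39 in cdc10-v50 (SD 0.08) and at least 2.64 in wild type (SD 0.42) over 4 probes, none marked m. Both are places where wild type was saturated at every probe and where the cdc10-v50 values were nearly uniform. On centromere III the lowest clr4d window, from -38 to -36 kb, was also the lowest of cdc10-v50, with -0.30 in clr4d (SD 0.26), 1.21 in cdc10-v50 (SD 0.26) and 0.77 in wild type (SD 0.19) over 6 probes.

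A single probe on centromere III, at -7.65 kb, stood out in clr4d. Its ratio was 3.75 in clr4d, 2.42 in cdc10-v50 and 1.32 in wild type, with ChIP signals of 2.58 in clr4d, -0.46 in cdc10-v50 and -0.06 in wild type. The neighbouring probes 300 bp to the left and right had ratios of 0.08 and 1.60 in clr4d, against 1.36 and 0.96 in wild type. At 600 bp to the left and right they were -0.29 and 1.52 in clr4d, against 1.11 and 0.95 in wild type. The input at the high probe was -1.17 in clr4d, -2.81 in cdc10-v50 and -1.30 in wild type. The value of 3.75 in clr4d thus stood out by its ChIP signal, and its height rests on 1 spot.

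Against wild type, cdc10-v50 was higher over the flanks by at most 1.76 in the median of the left flanks (SD 1.19, 182 probes) and by at most 1.70 in that of the right flanks (SD 1.33, 111 probes). The excess was at least 2-fold at 248 of 340 members (72.9%), against 2.97% of all probes, and no member measured at least 2-fold lower, against 0.983% of all probes. The differences at saturated probes are upper limits, so the first count is an upper limit and the second a minimum. Over probes saturated on no array the difference was 0.83 in the left flanks (SD 0.68, 65 probes) and 1.03 in the right flanks (SD 1.00, 44 probes). Without marked probes, which also changes position, it was at most 0.54 in the left flanks (SD 0.74, 38 probes). In the right flanks it was then at most 0.35 (SD 1.19, 37 probes), and both were within the spread between probes. On both arrays the same flank probes tended to be high, with a Pearson correlation of 0.63 across 293 flank probes that share repeats. Between clr4d and wild type it was 0.14 across 304 probes. In both correlations most wild-type ratios are lower bounds.

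Between the mutants, which share scan settings and have no saturated members, clr4d lay below cdc10-v50 by 4.21 in the median of the left flanks (a difference of -4.21, SD 1.66, 196 probes) and by 2.74 in the right flanks (-2.74, SD 1.86, 117 probes), or 18.5-fold and 6.68-fold. The size depended on the probes taken. Without marked probes it was -1.54 in the left flanks (SD 0.83, 39 probes) and -1.50 in the right (SD 1.099, 37 probes). Over probes saturated on no array it was -1.70 in the left (SD 0.64, 65 probes) and -1.49 in the right (SD 0.89, 44 probes). Both choices also change which positions within the flanks are measured. At 322 of 360 members (89.4%) clr4d was at least 2-fold below cdc10-v50, against 4.39% of all probes. It was at least 2-fold above at 1 of 360 (0.278%), the centromere III probe described above, against 1.97% of all probes. The deepest differences were at probes marked m, with -6.34 on centromere I at 13.45 kb, -6.23 on centromere II at 20 kb and -6.07 on centromere III at 18.15 kb.

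The channels taken alone show that this difference was made up of both ChIP and input. Over the left flanks the ChIP signal had a median of 0.88 in clr4d (SD 2.29), 3.23 in cdc10-v50 (SD 2.60) and at least 1.62 in wild type (SD 1.38), the last at the scanner's ceiling. The input signal there was 0.39 in clr4d (SD 2.16), -1.004 in cdc10-v50 (SD 1.52) and -0.75 in wild type (SD 0.79). The right flanks had input medians of 0.07 in clr4d (SD 2.32), -0.95 in cdc10-v50 (SD 1.91) and -0.70 in wild type (SD 1.03). By flank the clr4d input median was above the array median in the left flanks of centromeres I and II and the right flank of III, at 0.86, 0.43 and 1.74, and below it in the right flanks of I and II and the left flank of III, at -0.37, -1.15 and -0.40. The cdc10-v50 and wild-type input medians were below 0 in every flank. In clr4d the SD between probes was wider than these values in every flank but the right one of centromere III (SD 1.56).

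**Figure D3:**
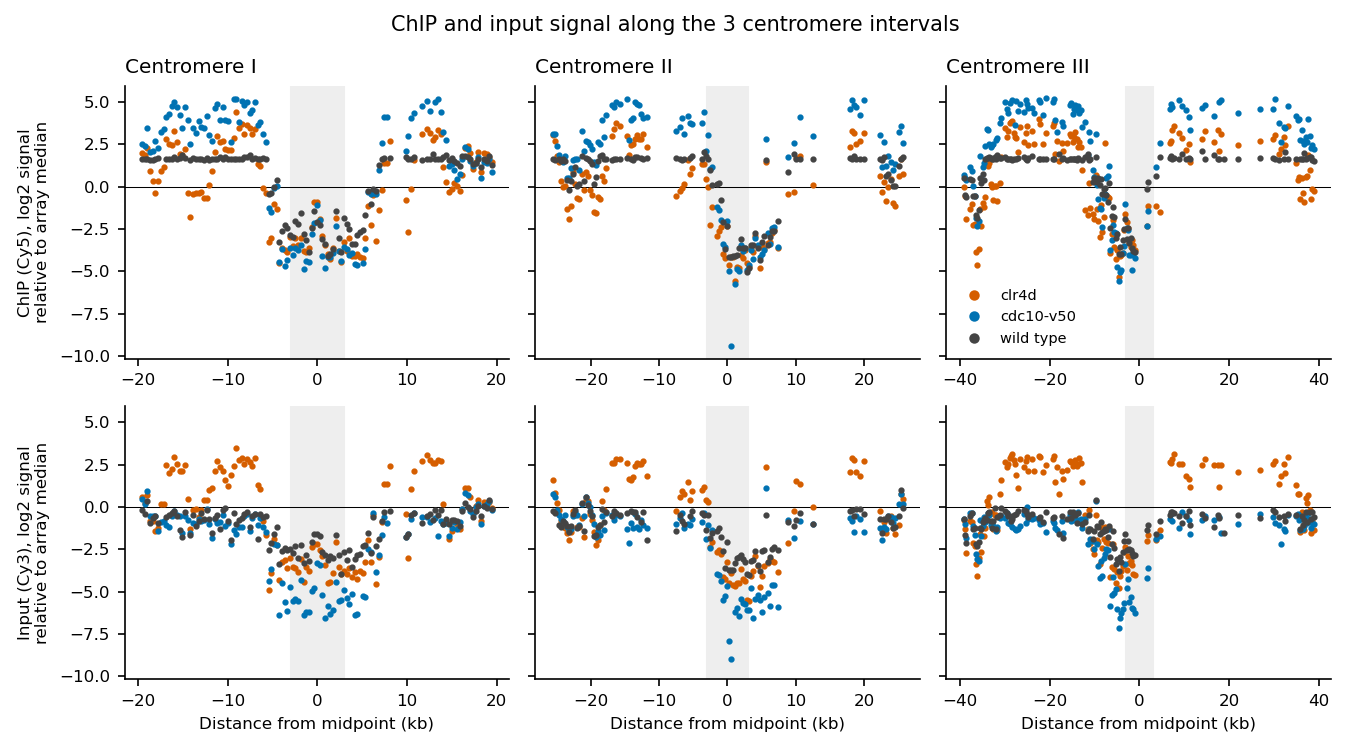
Log2 ChIP signal (top) and input signal (bottom) of every member probe, relative to the median of the same channel and array, against distance from the midpoint in kb for centromeres I, II and III. The flat line of wild-type ChIP signals is the scanner's ceiling, and clr4d input signals rise to more than 2 on probes where cdc10-v50 and wild type lie below 0.

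The shares of total signal give the same picture in linear units. Members held 2.05% of all ChIP signal in clr4d, 6.09% in cdc10-v50 and, as measured, 1.66% in wild type, where saturation cut both the members' signal and the total. Of all input signal they held 1.59% in clr4d, 0.341% in cdc10-v50 and at most 0.446% in wild type, with 0.898% of the probes. Members marked m alone, 0.301% of the probes, held 1.25% of the input signal in clr4d, 0.143% in cdc10-v50 and at most 0.193% in wild type.

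The excess of input in clr4d was largest at members marked m. At members marked m the input median was 2.48 in clr4d (SD 1.098, 124 probes), -0.82 in cdc10-v50 (SD 0.57, 116 probes) and -0.48 in wild type (SD 0.49, 113 probes). Between the mutants the input difference was 3.26 (SD 1.12), or 9.56-fold higher in clr4d, and the ChIP difference was -1.69 (SD 0.83), or 3.24-fold lower in clr4d. Together they gave a ratio of 0.43 in clr4d (SD 0.41), 5.31 in cdc10-v50 (SD 0.94) and at least 2.22 in wild type (SD 0.52). The highest cdc10-v50 ChIP signals were alike on the centromeres, 5.18 on I, 5.17 on II and 5.21 on III in the left flanks, with none at the scanner's limit. The ChIP signal of these probes in clr4d, 2.80 (SD 1.23), was itself 6.99-fold above that array's median. A low ratio there is therefore a high ChIP signal over a similarly high input signal.

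Probes marked m outside the intervals on chromosomes I to III had no such difference between the mutants. Their input median was 2.42 in clr4d (SD 1.34, 311 probes), 2.47 in cdc10-v50 (SD 1.22, 295 probes) and at least 1.67 in wild type (SD 0.87, 307 probes), and the clr4d minus cdc10-v50 difference was -0.05 (SD 0.52).

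The ChIP signals of the members are limited by the scan ceiling in wild type but not in the mutants. Between the mutants clr4d was at least 2-fold lower at 242 of 360 members (67.2%), against 7.57% of all probes, and 2-fold or more above at 9 (2.5%), against 3.57%. In clr4d minus wild type the ChIP signal was at least 2-fold higher at 70 of 352 members (19.9%), against 5.47% of all probes, and lower by as much at 132 (37.5%), against 4.5%. In cdc10-v50 minus wild type it was higher at 166 of 340 members (48.8%), against 8.37% of all probes, and lower at 43 (12.6%), against 3.61%. Saturated wild-type ChIP signals are lower bounds, so the counts above wild type are upper limits and those below it minimums.

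Over the whole array the input was at least 2-fold higher in clr4d than in cdc10-v50 at 2.22% of probes, and among members at 226 of 360 (62.8%). The reverse held at 5 members (1.39%), against 4.81% of all probes. Input was at least 2-fold higher in clr4d than in wild type at 136 of 352 members (38.6%), against 3.25% of all probes, and lower at 46 (13.1%), against 4.61%. In cdc10-v50 it was below wild type by as much at 101 of 340 members (29.7%), against 1.12% of all probes, and above at 1 (0.294%), against 2.26%. What set the input of the repeats apart in clr4d was not tested.

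Members marked m were alike in their ratios on the 3 centromeres, and in the input difference between the mutants on centromeres I and II. The m-marked input difference between clr4d and cdc10-v50 was 3.21 on centromere I (SD 1.40, 36 probes) and 3.31 on centromere II (SD 1.25, 23 probes). Ratios at these probes were 0.35 in clr4d, 5.25 in cdc10-v50 and at least 2.22 in wild type on centromere I. On centromere II they were 0.45 in clr4d, 5.36 in cdc10-v50 and at least 2.03 in wild type. On centromere III they were 0.44 in clr4d, 5.32 in cdc10-v50 and at least 2.26 in wild type. The right flank of III inward of the outer 5 kb, with 24 of 26 probes marked m, had input medians of 2.46 in clr4d and -0.80 in cdc10-v50.

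Members marked f and unmarked members showed smaller differences. Members marked f had ratios of 0.31 in clr4d (SD 0.64, 158 probes), 2.81 in cdc10-v50 (SD 1.21, 155 probes) and at least 1.73 in wild type (SD 1.17, 151 probes). Unmarked members had 0.62 in clr4d (SD 0.73, 90 probes), 1.94 in cdc10-v50 (SD 0.90, 89 probes) and at least 1.44 in wild type (SD 1.17, 89 probes). The median clr4d minus cdc10-v50 difference was -2.26 at f probes (SD 1.41) and -1.54 at unmarked probes (SD 0.96). The input difference between the mutants was 1.14 at f probes (SD 1.08) and 0.31 at unmarked probes (SD 1.15). Mark and position go together, so these differences cannot be assigned to the mark alone. No probe of the middle is marked m, and the f and unmarked medians pool flank and middle. At both ends of centromere III and the right end of centromere I no probe of the outer 5 kb is marked m.

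**Figure D4:**
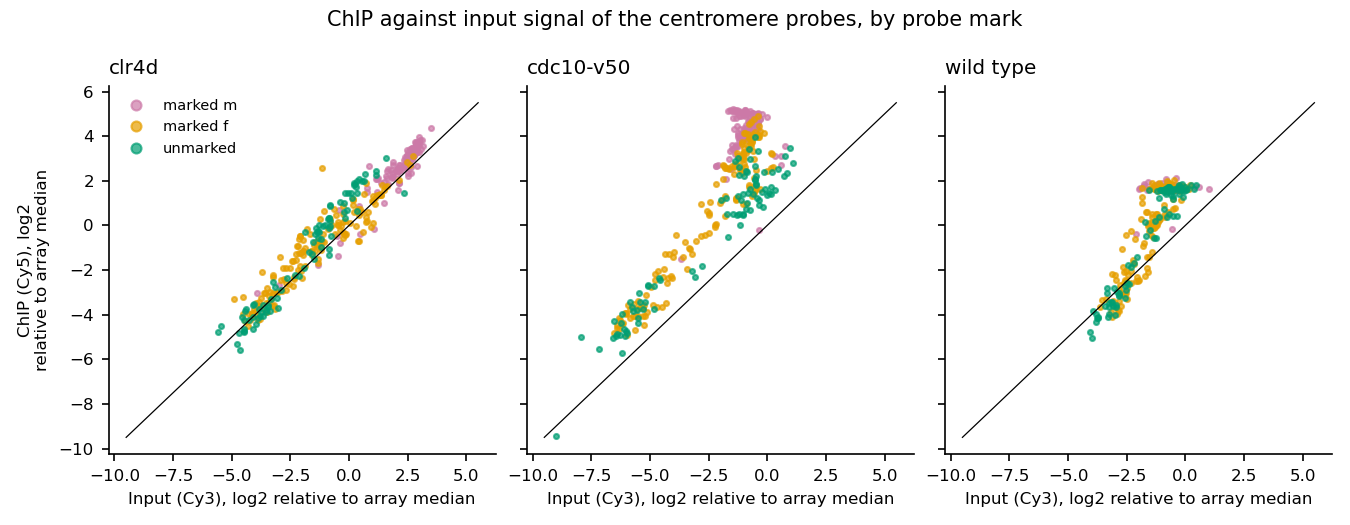
Log2 ChIP against log2 input signal of the member probes, relative to the array median, for clr4d, cdc10-v50 and wild type, coloured by the mark in the probe name; the line marks equal values. In clr4d the points follow the line, and the m-marked probes lie at its upper end; in cdc10-v50 and wild type they rise above it at inputs below 0, in wild type up to the scanner's ceiling.

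Across flank probes the ChIP signal followed the input closely in clr4d, with a Pearson correlation of 0.97 over 324 probes (Spearman 0.96). In cdc10-v50 it was 0.85 over 313 probes (Spearman 0.51) and in wild type 0.87 over 305 probes (Spearman 0.59). Most wild-type ChIP signals there were at the scanner's ceiling, so the wild-type correlations cannot be set beside those of the mutants. The points of an array share its hybridisation and, in the flanks, much of their sequence.

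The middle 6 kb of the intervals, which was set by position and not by any annotated element, had little signal in either channel. Its ChIP median was -3.46 in clr4d (SD 1.16), -3.76 in cdc10-v50 (SD 1.96) and -3.04 in wild type (SD 1.55). Its input median was -3.58 in clr4d (SD 1.03), -5.49 in cdc10-v50 (SD 1.43) and -2.73 in wild type (SD 0.81). Input signals that low were rare on the arms, where 0.732% of probes were below that level in clr4d, 0.0823% in cdc10-v50 and 0.592% in wild type. No probe of the middle is marked m.

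The middle ratio of clr4d minus that of wild type had a median of 0.20 (SD 1.06, 48 probes), within the spread between probes. It reached 2-fold or more above at 11 of these probes, against 4.83% of all probes, and below by as much at 5, against 5.19%. By centromere it was 0.24 on I (SD 0.70), -0.03 on II (SD 1.25) and 0.88 on III (SD 1.17, 9 probes). The ratio of cdc10-v50 exceeded that of wild type by 1.996 (SD 0.83, 47 probes) and was at least 2-fold higher at 39 of them, against 2.97% of all probes. Its parts were a ChIP difference of -0.78 (SD 1.08) and an input difference of -2.77 (SD 0.90). The ChIP difference was within its spread between probes and the input difference was not. Over the longer stretches without m marks the ChIP difference was at most -0.55 on the 3 centromeres together (SD 1.24, 114 probes). It was -1.04 on centromere I (SD 0.82, 36 probes) and at most -0.90 on III (SD 1.00, 33 probes). On II it was at most 0.14 (SD 1.45, 45 probes), where 16 probes of the stretch were saturated in wild type.

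That ratio also depended on the background taken off the dim input spots. In cdc10-v50 the middle probes had a median input brightness of 648 and a local background of 181.5. Subtracting the local background left 461.5, whereas the software's own correction left 225.8, a further 232 units less. The same spots in clr4d had an input brightness of 1129 with a local background of 162, and in wild type 2949 with 88.25. With local background alone the middle ratio was -0.10 in clr4d (SD 0.50), 0.83 in cdc10-v50 (SD 1.30) and -0.32 in wild type (SD 0.91). With the normexp correction it was -0.68 in clr4d (SD 0.38), -0.83 in cdc10-v50 (SD 1.15) and -0.65 in wild type (SD 0.90), and the cdc10-v50 minus wild-type difference became -0.23 (SD 0.57). At least 2-fold excess over wild type was then left at 3 of 47 middle probes, against 3.71% of all probes.

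**Figure D5:**
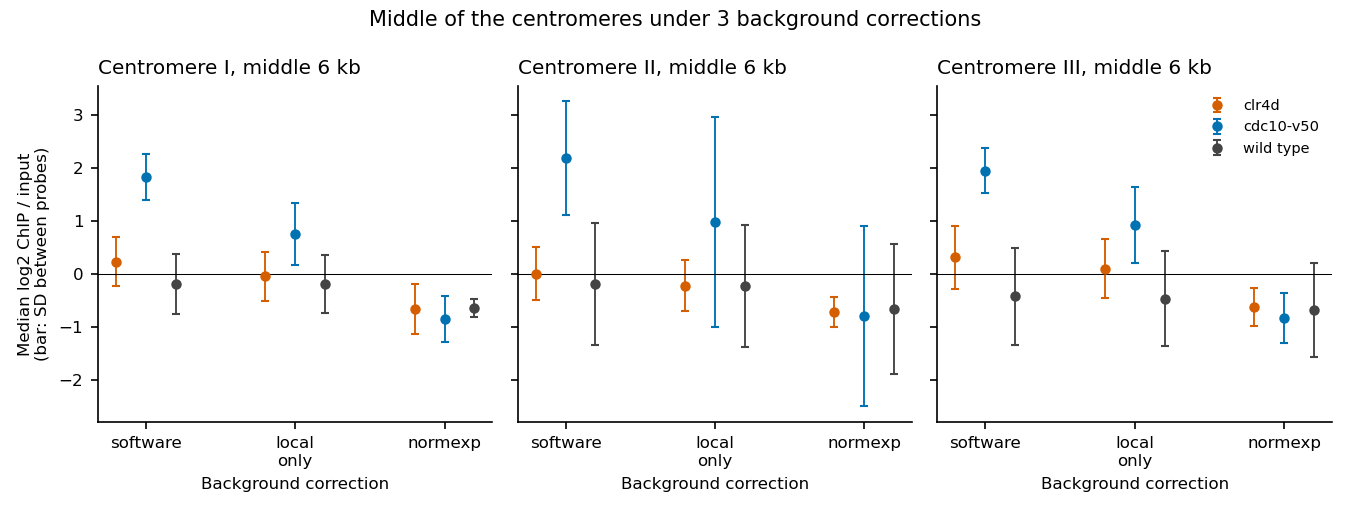
Median log2 ChIP over input of the middle 6 kb of each centromere (points; bars are the SD between probes) for clr4d, cdc10-v50 and wild type under the scanner software's background correction, local background alone, and normexp. The cdc10-v50 points lie between 1.83 and 2.18 with the software's correction and between -0.86 and -0.80 with normexp.

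In the flanks the mutant ratios moved less with this choice than in the middle, while that of wild type moved more. Over both flanks the ratio was 0.43 in clr4d, 4.16 in cdc10-v50 and at least 2.10 in wild type with the software's correction. With local background alone it was 0.44 in clr4d, 4.12 in cdc10-v50 and at least 2.12 in wild type. With normexp it was 0.22 in clr4d, 4.54 in cdc10-v50 and at least 2.85 in wild type. Among all members, cdc10-v50 was at least 2-fold above wild type at 198 of 340 (58.2%) with local background alone, against 2.72% of all probes, and at 178 of 340 (52.4%) with normexp, against 3.71% of all probes. With local background alone 57 of 372 members were 2-fold or more above the array median in clr4d (15.3%), against 8% of all probes, 304 of 360 in cdc10-v50 (84.4%), against 9.54%, and 265 of 353 in wild type (75.1%), against 9.4%. With normexp it was 61 in clr4d (16.4%), against 12.1% of all probes, 270 in cdc10-v50 (75%), against 12.3%, and 253 in wild type (71.7%), against 17.6%.

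The middle 6 kb was only a section of a longer stretch, which was not centred on the midpoint. The longest run of probes without an m mark spanned 11.1 kb on centromere I, from -4.85 to 6.25 kb. On centromere II it spanned 20.4 kb, from -7.6 to 12.8 kb, and on centromere III 14.4 kb, from -9.45 to 4.95 kb. The lowest wild-type windows were at 0 to 2 kb on centromere I, with -0.61 (SD 0.25), the same window on centromere II, with -0.55 (SD 0.27), and -2 to 0 kb on centromere III, with -0.74 (SD 0.23). Taken over those longer runs, the ratio was 0.12 in clr4d (SD 0.61, 118 probes), 2.19 in cdc10-v50 (SD 1.04, 115 probes) and at least 0.21 in wild type (SD 1.12, 117 probes).

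The highest windows differed by group. In clr4d they reached 1.43 at the left end and 1.60 at the right end of centromere I, 1.46 at the left end of II, and 1.21 (SD 1.27) at the window on III that holds the single high probe. In cdc10-v50 every probe of them was marked m, but for 1 of 4 in the last: 5.73 (SD 0.83) and 5.83 (SD 0.64) left and right of the middle on centromere I, 5.59 (SD 0.47) and 5.67 (SD 0.61) on II, and 5.86 (SD 0.63) and 5.42 (SD 0.14) on III. In wild type the highest were at least 2.76 and 2.58 on I, 2.64 and 2.04 on II, and 2.96 and 2.61 on III, with every probe saturated in all but the right window of II, where 3 of 6 were. Of 64 windows of 2 kb with at least 3 probes, 6 averaged at least 2-fold above the median in clr4d, 64 in cdc10-v50 and 50 in wild type. Windows outside the intervals were not counted. Of all single probes, 8.19% reached that level in clr4d, 9.64% in cdc10-v50 and 9.34% in wild type. The window counts use the software's background correction, on which the cdc10-v50 ratios of the middle depended.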

How the data were processed

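Psc3-GFP ChIP DNA (Cy5) and input DNA (Cy3) were hybridised to 3 two-colour Agilent arrays, 1 per group, with no dye swap; groups and dyes are per the labels. Per the file headers, Agilent Feature Extraction 11.5.1.1 read the clr4d and cdc10-v50 arrays and 11.0.1.1 the wild-type array, with ChIP saturation at 777470, 777453 and 65526, and the cdc10-v50 file alone carries the result ExtractionEvaluate. The deposited processed intensity of each channel was background-subtracted and dye-normalized by that software, per the file headers; deposited median spot and background intensity was not. The authors' deposited value table holds log2 green over red, not centred (column medians 0.04 in clr4d, 0.06 in cdc10-v50 and -0.17 in wild type), and equalled minus the scanner ratio to within 0.001 at all 373 members.

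Log2 ratios of red over green processed intensity were centred on the median of all genome probes of the array, with no loess. The 1417 control spots and non-uniform spots (9 in clr4d, 1215 in cdc10-v50 and 62 in wild type; 1, 13 and 20 of them members) were left out, and saturated spots were kept. Members not well above background numbered 0, 3 and 0. Regional values are medians, window values means. With 1 array per group no test was run, and array number limits the precision. By rule, the windows named are the highest on either side of the middle and the lowest, per centromere and group, and the probes those with the highest and lowest difference per contrast; the report gives a selection of these. The probes of clr4 were picked within 5 kb of the gene by an input in clr4d far below that in wild type. Summaries were tested on simulated data. Members and rules were chosen with earlier results of these data known. No label or header names the array's genome build. The number of other per-sample columns was 0. Alternatives covered background, loess, centring, saturation, marks, region widths and summary. Tools were Python 3.11.15, numpy 2.4.6, pandas 2.3.3, R 4.3.3 and limma 3.58.1 (normexp with offset 50).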

Additional observations from a re-analysis of the deposited data

How the results depend on the processing

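With 13 alternatives, 126 results gave 1218 values, of which 1123 moved by under 1 SD between probes, 76 moved by more and 19 changed sign. No value moved by that much with the authors' value table, non-uniform spots kept, centring on the arms, means, or a middle of 3 or 10 kb. With loess, without the outer 5 kb, or with the middle taken as the stretch without m marks (chosen after seeing the data), 1 value for a single centromere moved in each. With normexp the middle ratio was -0.68 in clr4d and -0.83 in cdc10-v50 (-0.86 on I, -0.80 on II, -0.83 on III). Middle differences were then -0.23 for cdc10-v50 minus wild type (-0.22, -0.24, -0.21) and 0.16 for clr4d minus cdc10-v50 (0.17, 0.067, 0.19), with -0.20 for input. At m probes normexp gave 2.96 in wild type and -2.68 for clr4d minus wild type. With local background alone (chosen after seeing the data) the middle had 0.83 in cdc10-v50, 0.83 for cdc10-v50 minus wild type and -0.85 for clr4d minus cdc10-v50. Over unsaturated probes cdc10-v50 had 2.22 in the left and 2.01 in the right flanks, clr4d minus cdc10-v50 was -1.70 (left), and clr4d minus wild type -0.32 (right). Wild-type ChIP was then -0.042 (left) and -0.26 (right), cdc10-v50 ChIP -0.38 (right), the clr4d minus cdc10-v50 input -0.085 (left) and wild type on centromere II -0.046 (right). The m probes then number 3, with 2.25 in cdc10-v50, -0.91 for clr4d minus wild type, 0.33 for cdc10-v50 minus wild type and -1.36 for clr4d minus cdc10-v50. Without marked probes the left flanks had 2.28 in cdc10-v50, 0.54 for cdc10-v50 minus wild type and -1.54 for clr4d minus cdc10-v50. The right flanks then had 1.03 in clr4d, 1.82 in cdc10-v50, -0.34 for clr4d minus wild type, 0.35 for cdc10-v50 minus wild type, and -0.12 in wild type on centromere II. The last 2 alternatives remove probes and so change the positions measured, and the causes of the other changes were not tested. No paired analysis was possible because each group has 1 array, and leaving out a replicate could not be run for the same reason.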
